A study of Homo sapiens with 18 samples.

Results

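The cytosolic ribosomal protein genes were taken as the genes whose name is RPL or RPS followed by a number, alone or with one of the endings A, L, L1, AL and X, together with RPLP0, RPLP1, RPLP2 and RPSA. A name also needed at least 1 transcript row typed as protein coding. This left 85 genes of the 32490 names in the transcript table, 53 for the large subunit and 32 for the small subunit, which held 762 of its 145326 transcript rows. The rule read names and row types and no expression value. RNA-SEQ was carried out on spheroidal aggregates of U87mg, a human glioblastoma cell line, and of DAOY, a human line from a desmoplastic cerebellar medulloblastoma, embedded in a Matrigel channel. A direct current electric field (dcEF) of 250 V/m was applied during 2 or 8 h. The aggregates labelled 0 h were the control without field, which gives 6 groups of 3 samples. By the study's methods, the aggregates of all groups first acclimated in the Matrigel for the same time. Those labelled 0 h were therefore not freshly embedded. Each sample pooled the cells of 3 channels, and each tumor is represented by 1 established line, so a difference between the lines is not a difference between tumor types. No unexposed sample of 2 or 8 h was analysed here, so hours of field and extra hours in the channel cannot be told apart.

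The cytosolic ribosome is built from rRNA and a set of small basic proteins whose genes are expressed in every growing cell and are among the most abundant mRNAs of tumor cells. Their mRNAs are known for a 5′ terminal oligopyrimidine (TOP) tract, a C at the cap followed by an unbroken run of pyrimidines, through which mTOR and the binding protein LARP1 control translation of the whole set. RNA-SEQ measures the amount of an mRNA and not its translation. Several members have a second gene for a related protein (RPL3L, RPL7L1, RPL10L, RPL22L1, RPL26L1, RPL36AL, RPL39L and RPS27L), called second paralogs below.

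The start sites are shown first because the tract is the feature that the members share and that most matched second paralogs lack. RefSeq promoter windows (build GRCh38.p14) could be matched by symbol for 68 of the 85 genes, with 84 start sites in all and several starts for 11 genes. A C followed by at least 4 bases that are each C or T, on the transcribed strand and beginning exactly at an annotated start, was found for 47 of the 68 genes (69.1%), against 1404 of all 27305 symbols in the table (5.14%). With the tract allowed to begin up to 5 bases to either side, a setting chosen after the data were seen, the counts were 55 genes (80.9%) and 6886 symbols (25.2%). Of the second paralogs, 1 of 6 carried the tract at the start, RPL22L1, and 2 with the shift allowed, against 46 and 53 of the other 62 matched members. Each window below gives 30 bases of the transcribed strand, the annotated start being the first base after the initial 15, and capitals mark the tract nearest the start. The lines show second paralogs, most beside the first gene of their pair, and then the members that the comparisons below turn on. RPL10 has other annotated starts without a tract, and its line gives the start that has one.
RPS27 (chr1:153990747-153990776, plus strand): atttccgctttcgctCCTTTCCggcggtga
RPS27L (chr15:63157463-63157492, minus strand): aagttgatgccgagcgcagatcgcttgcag
RPL22 (chr1:6199581-6199610, minus strand): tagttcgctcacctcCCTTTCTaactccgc
RPL22L1 (chr3:170870181-170870210, minus strand): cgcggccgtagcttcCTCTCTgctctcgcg
RPL36A (chrX:101390996-101391025, plus strand): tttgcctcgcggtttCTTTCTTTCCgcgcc
RPL36AL (chr14:49620612-49620641, minus strand): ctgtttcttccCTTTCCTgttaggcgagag
RPL26 (chr17:8383179-8383208, minus strand): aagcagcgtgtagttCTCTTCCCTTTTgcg
RPL26L1 (chr5:172958714-172958743, plus strand): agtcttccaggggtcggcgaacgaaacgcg
RPL10 (chrX:154398362-154398391, plus strand): caggcggaggagcgcCTCTTTCCCTTCggt
RPL10L (chr14:46651767-46651796, minus strand): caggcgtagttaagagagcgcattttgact
RPL7L1 (chr6:42879601-42879630, plus strand): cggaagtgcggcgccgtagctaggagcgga
RPLP0 (chr12:120201097-120201126, minus strand): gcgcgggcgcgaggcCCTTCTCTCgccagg
RPLP1 (chr15:69452803-69452832, plus strand): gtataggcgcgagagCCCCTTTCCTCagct
RPLP2 (chr11:809952-809981, plus strand): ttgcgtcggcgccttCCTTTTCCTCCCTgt
RPSA (chr3:39406705-39406734, plus strand): tttcctgccgcctgtCTTTTCCgtgctacc
RPS6 (chr9:19380222-19380251, minus strand): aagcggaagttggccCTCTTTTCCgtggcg
RPS12 (chr6:132814554-132814583, plus strand): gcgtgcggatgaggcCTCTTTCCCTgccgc
RPS14 (chr5:150449725-150449754, minus strand): ccgccccctcccactCTCTCTTTCCggtgt
RPS18 (chr6:33272060-33272089, plus strand): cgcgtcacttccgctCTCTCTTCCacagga
RPS10 (chr6:34426055-34426084, minus strand): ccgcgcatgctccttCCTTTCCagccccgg
RPL10A (chr6:35468386-35468415, plus strand): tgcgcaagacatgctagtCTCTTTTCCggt

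RPS27 and RPL26 begin with a tract of 7 and 12 bases, whereas the windows of RPS27L, RPL26L1, RPL10L and RPL7L1 hold none near the start. In RPL10A the tract begins 3 bases after the annotated start. In RPL36AL the match nearest the start begins 4 bases before it, inside a longer run of pyrimidines that reaches further upstream. These matches describe letters in the reference sequence, not sites shown to be used in either line.

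Libraries held 8341976 to 15610886 estimated counts, of which 195753 to 475092 fell on the 85 genes, so counting error was small for all but RPL3L and RPL10L. The library labelled DAOY 0 h replicate 0 stood apart for these genes. Its members lay at a median of -0.52 on the log2 scale from their own mean over the DAOY samples, against -0.08 to 0.19 in the other 8, and 3.76% of its member counts lay on rows typed as nonsense-mediated decay, against 1.07% to 1.67% in the other 17 libraries. The DAOY medians over all members, the larger 8 h shifts in paralog parts and the counts called between the lines are therefore given with and without it. Unless stated, values of single genes and of shorter lists include it. U87mg aggregates held VIM, CD44 and CHI3L1 (means of 4744, 3172 and 123 TPM at 0 h) but GFAP at no more than 1.91 TPM and S100B, OLIG2 and SOX2 below 1 TPM. DAOY aggregates held ZIC1, ZIC2, PTCH1 and SFRP1 (9.65 to 24.4 TPM at 0 h), with BARHL1 at 0, NEUROD1 near 0 and GLI1 and GLI2 at 0.269 and 1.245 TPM. The lists did not separate the lines cleanly, since U87mg held ZIC1, GLI1 and GLI2 at 8.85, 4.66 and 4.23 TPM. Of the glioma list, DAOY at 0 h held VIM at 2405, CD44 at 1129 and SOX2 at 4.24 TPM. FN1 of that list was at 6042 TPM in DAOY and 1208 TPM in U87mg, and NES at 0.551 and 7.77 TPM. Among 6 markers of other cells, PTPRC, MOG and RBFOX3 stayed below 0.29 TPM and EPCAM at no more than 1.83 TPM in every group. The keratin KRT18 was at 135, 164 and 213 TPM in DAOY at 0, 2 and 8 h and below 1 TPM in U87mg, and PECAM1 at 7.098 to 10.3 TPM in DAOY. The 2 of this list tested in DAOY had a median log2 fold change of 0.56 at 8 h, with 0 called by edgeR and 1 by DESeq2, and their part in the results for DAOY was not tested.

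Per length, in TPM (abundance scaled for transcript length and library size), RPL7, RPS24 and RPS27 had the highest means over the 18 samples. RPL7, a large-subunit protein, measured 3546 ± 518 TPM (SD, n = 3) in DAOY and 2335 ± 231 TPM in U87mg at 0 h. RPS24, of the small subunit, measured 2814 ± 405 and 2946 ± 148 TPM, so the order of RPL7 and RPS24 was not the same in the lines. RPS27 measured 2353 ± 1034 and 2829.7 ± 49.8 TPM, with the widest SD of these genes in DAOY. At the other end stood 3 second paralogs. RPL39L measured 44.2 ± 9.54 TPM in DAOY and 37.1 ± 2.98 TPM in U87mg, and RPL3L, a gene of skeletal and heart muscle, never exceeded 11 counts in a library. RPL10L, a testis gene without introns, was counted in all 9 DAOY libraries (8 to 29 counts) and in none of the 9 U87mg libraries, so that with a floor of 3 counts per library it was at least 7.02-fold higher in DAOY at 0 h. Only 4 of the 10 highest members by TPM were among the 10 highest by CPM (counts scaled for library size alone), since CPM also follows transcript length.

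The 85 genes took between 2.35% and 3.44% of all estimated counts of a library. In U87mg the share was 2.73, 2.92 and 2.85% in replicates 0, 1 and 2 at 0 h, 2.79, 2.49 and 2.35% at 2 h and 3.22, 2.98 and 2.72% at 8 h. In DAOY it was 2.35, 3.22 and 3.41% at 0 h, 3.44, 3.21 and 3.01% at 2 h and 3.098, 2.79 and 3.35% at 8 h. The groups of a line overlapped, and DAOY 0 h replicate 0 was the lowest DAOY sample. As means with SD over 3 samples the shares were 2.83% ± 0.0966, 2.54% ± 0.228 and 2.97% ± 0.247 in U87mg, and 2.99% ± 0.566, 3.22% ± 0.216 and 3.08% ± 0.279 in DAOY, at 0, 2 and 8 h. The mean at 0 h in DAOY was 3.32% without replicate 0. In bulk samples such as these, fewer cells with the mRNA and less mRNA per cell cannot be told apart.

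**Figure D1:**
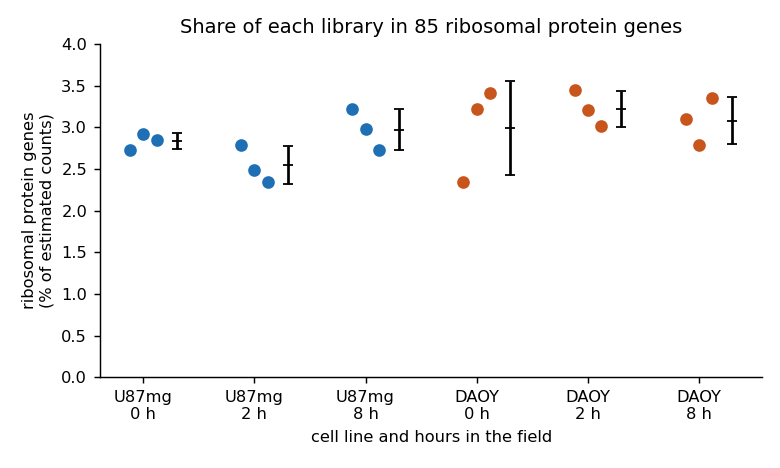
Percent of all estimated counts of a library that fell on the 85 ribosomal protein genes (vertical axis) for each cell line and hours in the field (horizontal axis). Points are the 3 samples of a group in replicate order, and the bar beside them is the mean with its SD. All 18 libraries lie between 2.35% and 3.44%, and DAOY 0 h replicate 0 is the lowest point of its group.

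After 2 h of dcEF no ribosomal protein gene of U87mg passed the test, nor did any other gene, and the members as a list lay slightly below the control. Of the 83 members tested, 67 had a log2 fold change below 0, with a median of -0.22 against -0.02 over all 14106 names tested, and every member stayed within 1.5-fold. The quasi-likelihood test of edgeR, adjusted by the Benjamini-Hochberg procedure (FDR), called 0 members at 0.05, where 0% of all names were called, and DESeq2 also called 0. The number at an unadjusted p below 0.05 was 7 members, all lower, where 8.78% of all names passed. The 3 samples of one group lay entirely below those of the other for 7 members and above them for none, against 5.03% and 8.77% of all names.

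RPS14, a small-subunit protein next to the mRNA exit, measured 154, 133 and 123 CPM at 2 h and 163, 208 and 192 CPM at 0 h in U87mg, a log2 fold change of -0.46 (SE 0.15, FDR 0.495 by edgeR's quasi-likelihood test). RPL10A, of the large-subunit L1 stalk, measured 159, 123 and 119 CPM against 166, 169 and 168 CPM, a log2 fold change of -0.33 (SE 0.12, FDR 0.495 by the same test). In both genes the groups did not overlap, and replicate 0 was the 2 h sample closest to the control. The others at an unadjusted p of 0.05 were RPS21, RPS15A, RPL41, RPS27 and RPL23A. The library trends moved with this result. Members have a median transcript length of 703 bases against 2626 for other tested names and a GC content of 50.6% against 47.5%, and with a smooth trend of each library on length removed the members' median became -0.12, with one on GC removed -0.07. Without U87mg 0 h replicate 0 the count was 6 members (RPL21 higher, and RPLP1, RPS14, RPS15, RPS2 and RPS28 lower), when 1214 names in all were called. Without U87mg 2 h replicate 2, whose members lay -0.38 from their mean over the U87mg samples, the members' median was -0.13.

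After 8 h the ribosomal protein genes of U87mg lay above the control as a list, by a small amount and without a call. The log2 fold change was above 0 for 81 of 83 members, the median was 0.15 against -0.00124 over all names, and every member again stayed within 1.5-fold. edgeR called 0 members, where 1.72% of all names were called, DESeq2 called 0, and 0 members had an unadjusted p below 0.05, where 15.9% of all names did. The groups did not overlap in 13 members, all higher at 8 h (RPL4, RPL5, RPL6, RPL11, RPL13A, RPL14, RPL27A, RPL34, RPS7, RPS20, RPS23, RPS25 and RPS29), where 9.59% of all names were higher and 8.68% lower without overlap. RPL5, which with RPL11 carries the smallest rRNA of the large subunit into the ribosome and binds MDM2, had the smallest adjusted p. It measured 370.0, 383 and 404 CPM at 8 h and 364, 309 and 313 CPM at 0 h, a log2 fold change of 0.23 (SE 0.11, FDR 0.348 by edgeR's quasi-likelihood test). RPL11 measured 484, 397 and 385 against 348, 361 and 383 CPM, a log2 fold change of 0.21. Both lay higher in every 8 h sample than in any control sample. Without U87mg 8 h replicate 0 the members' median was 0.06 and 58 of 83 lay above 0, and without U87mg 0 h replicate 0 RPL9 alone was called.

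In DAOY after 2 h, edgeR and DESeq2 called 0 of the 84 members tested, 0% of all 15396 names were called, and 0 members had an unadjusted p below 0.05, where 2.75% of all names did. The median log2 fold change of the members was 0.15 against 0.00198 over all names, with 73 of 84 above 0. RPS27L was the only member whose groups did not overlap. It lay lower at 2 h, with 41.2, 41.9 and 41.02 CPM against 60.1, 42.03 and 42.6 CPM at 0 h, where 3.74% of all names were lower and 3.18% higher without overlap. Without DAOY 0 h replicate 0 the members' median was 0.00902, with 45 of 84 above 0.

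In DAOY after 8 h, again no member was called, while 5.85% of all names were. The median was 0.15 against -0.01 over all names, 74 of 84 members lay above 0, and DESeq2 also called 0. The single member with an unadjusted p below 0.05, where 22.7% of all names passed that threshold, was RPS15A of the small subunit. It measured 273, 284 and 272 CPM at 8 h and 162, 202 and 243 CPM at 0 h, a log2 fold change of 0.45 (SE 0.16, FDR 0.122 by edgeR's quasi-likelihood test). The 8 h samples lay close together and above all controls. RPS15A and RPS21 were the members higher without overlap and RPS27L and RPL26L1 those lower, where 12.3% and 13.8% of all names were. Without DAOY 0 h replicate 0 the members' median was 0.00404 and 45 of 84 lay above 0, and RPS15A was at 0.31.

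The second paralogs of DAOY stood on the other side of 0 from the rest at 8 h. All 7 tested (RPL7L1, RPL10L, RPL22L1, RPL26L1, RPL36AL, RPL39L and RPS27L) had a log2 fold change below 0, with a median of -0.24 and none called, while 74 of the other 77 members lay above 0 with a median of 0.16. Without DAOY 0 h replicate 0 the 7 again lay below 0, with a median of -0.13, but the other members lay close to 0, with 45 of 77 above it and a median of 0.01. In U87mg at 8 h, 5 of 6 second paralogs lay above 0, with a median of 0.12. The difference between the lines in the 8 h change was tested directly. edgeR and DESeq2 called 0 of 84 members, 0.0121% of all 16482 names were called, and 1 member, RPS27L, had an unadjusted p below 0.05, where 8.88% of all names did. The change in DAOY minus that in U87mg was -0.46 on the log2 scale (SE 0.21, FDR 0.523 by edgeR's quasi-likelihood test). Over all 84 members the median of the difference between the lines in the 8 h change was 0.02, with 49 above 0. Without DAOY 0 h replicate 0 that median was -0.13, with 10 above 0 and 0 called.

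**Figure D2:**
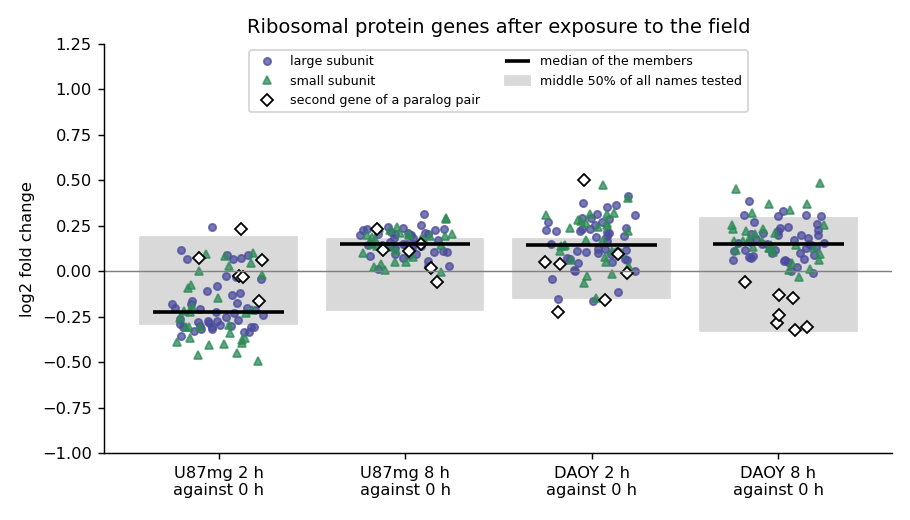
Log2 fold change of each tested ribosomal protein gene against 0 h (vertical axis) in the 4 comparisons (horizontal axis). Circles are large-subunit and triangles small-subunit genes, open diamonds the second paralogs, the black bar is the members' median and the grey box the middle 50% of all names tested. The medians are -0.22, 0.15, 0.15 and 0.15, and in DAOY at 8 h all 7 diamonds lie below 0.

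Members with a known role at a working surface of the ribosome or outside it were read by that role. RPS6, the S6 kinase substrate, measured 437, 359 and 364 CPM at 0 h, 391, 318 and 309 CPM at 2 h and 447, 371 and 409 CPM at 8 h in U87mg. In DAOY it measured 439.7, 445 and 508, 461, 470.2 and 437 and 463, 442 and 501 CPM at the same times. Its log2 changes were -0.19 and 0.08 in U87mg and -0.02 and 0.01 in DAOY at 2 and 8 h, all within overlapping groups. RPS27A, made as a fusion with ubiquitin, measured 785, 678 and 602 CPM at 0 h, 729, 668 and 713 CPM at 2 h and 755, 854 and 834 CPM at 8 h in U87mg. Its changes were 0.03 and 0.24 in U87mg and 0.01 and 0.11 in DAOY. RPSA, which also serves as a laminin receptor, had changes of -0.15 and 0.10 in U87mg and 0.05 and 0.05 in DAOY. Among the proteins of the acidic stalk that recruits the GTPase factors (RPLP0, RPLP1, RPLP2 and RPL12), the medians were -0.28, 0.12, 0.26 and 0.10 in the 4 comparisons. For 6 proteins at the decoding site and mRNA channel (RPS2, RPS3, RPS9, RPS15, RPS23 and RPS28) they were -0.38, 0.15, 0.26 and 0.18. The 8 proteins around the exit tunnel gave -0.20, 0.14, 0.12 and 0.15. In each list all members lay on the same side as the median at 8 h in both lines. Over all members tested, 81 of 83 in U87mg and 74 of 84 in DAOY lay above 0 at that time. The DAOY values of these lists include DAOY 0 h replicate 0 and were not read without it. Without that library the DAOY median over all members was 0.00902 at 2 h and 0.00404 at 8 h. The 95% interval of a member's log2 fold change reached a median of 0.32 to either side in U87mg and 0.42 in DAOY, so that smaller changes were not detectable at this spread, and in all 83 members of U87mg and 80 of 84 of DAOY the interval excluded a 2-fold change.

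Between the lines, in contrast, many ribosomal protein genes differed in aggregates without field. DAOY was higher than U87mg for 21 members and lower for 18 of the 84 tested by edgeR's quasi-likelihood test at an FDR of 0.05, and 45 were not called. These are smaller shares than over all 16482 names, of which 32.8% were higher and 27.9% lower. In the large subunit 13 genes were higher and 12 lower of 52, in the small subunit 8 higher and 6 lower of 32. The members' median was -0.09, against 0.05 over all names, and 0.05 by limma on log2(TPM + 1), so the list had no direction of its own, and with RPL10L set at its lower bound the median is the same. A 2-fold difference on top of the FDR left 7 higher and 7 lower. Without DAOY 0 h replicate 0 the split was 26 higher and 13 lower.

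RPS18, a small-subunit head protein, was the member with the largest difference upwards among those counted in both lines. It measured 390.5, 659 and 681 CPM in DAOY and 165, 176 and 167 CPM in U87mg, which was 3.41-fold higher in DAOY (log2 fold change 1.77, SE 0.21, FDR 1.57e-06 by edgeR's quasi-likelihood test). RPL5 measured 1125, 1002 and 1276 CPM in DAOY and 389, 321 and 324 CPM in U87mg, 3.29-fold higher (log2 fold change 1.72, SE 0.13, FDR 4.61e-09 by the same test). The groups did not overlap in either gene. Its partner RPL11 measured 349, 509.8 and 531 against 372, 375 and 396 CPM and was not called (log2 fold change 0.28, 95% interval -0.04 to 0.60). RPS10, next to the mRNA entry, measured 159, 308 and 292 CPM in DAOY and 77.9, 98.5 and 103 CPM in U87mg, 2.72-fold higher (FDR 5.31e-05 by edgeR's quasi-likelihood test). RPL7L1, the second gene of RPL7, was 2.36-fold higher (log2 fold change 1.24, SE 0.13). RPS3, a protein of the mRNA entry that also acts in DNA repair, was 1.91-fold higher (log2 fold change 0.94, SE 0.22). The remaining members higher in DAOY included RPL18, RPL38, RPS25, RPS29, RPL13A, RPL22, RPS14, RPL10A, RPL36AL, RPL6, RPL12, RPL7, RPS7, RPL35A and the near-silent RPL10L, between 1.27-fold (RPL35A) and 2.29-fold (RPL18) for those counted in both lines.

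Downwards, RPS27L stood first. This second gene of RPS27 measured 59.7, 40.2 and 41.5 CPM in DAOY and 280.2, 268 and 228 CPM in U87mg, 5.502-fold lower in DAOY (log2 fold change -2.46, SE 0.15, FDR 5.20e-10 by edgeR's quasi-likelihood test). RPL22L1 measured 47.00, 33.97 and 57.03 against 136, 115 and 154 CPM, 2.93-fold lower (log2 fold change -1.55, SE 0.26, FDR 5.48e-05 by the same test). In both genes every DAOY sample lay below every U87mg sample. RPS12, a protein of the small-subunit beak, measured 262, 330.2 and 382 against 757, 746 and 700.0 CPM, 2.26-fold lower (log2 fold change -1.18, SE 0.14). RPLP1 of the stalk was 2.27-fold lower (log2 fold change -1.18, SE 0.33) and RPLP0, which anchors it, 1.91-fold lower (log2 fold change -0.94, SE 0.26). RPLP1 measured 58.9, 187 and 174 CPM in DAOY and 196, 391 and 368 CPM in U87mg, with DAOY replicate 0 the lowest. RPLP2 of the same stalk was not called (log2 fold change -0.47, 95% interval -1.03 to 0.09), and RPL12 at its base was 1.37-fold higher. RPSA measured 282, 379 and 395 against 675, 713 and 747 CPM, 2.02-fold lower (log2 fold change -1.01, SE 0.14). RPL3, close to the peptidyl transferase center, was 1.86-fold lower (log2 fold change -0.90, SE 0.20). RPS21 was 2.09-fold lower, and RPS28, RPL9, RPS20, RPL14, RPL19, RPL26, RPL23A, RPL27, RPL23 and RPL17 completed the list. Of the exit-tunnel proteins 4 of 8 were lower in DAOY (RPL17, RPL19, RPL23A and RPL26) and none higher. At the decoding site 1 was higher (RPS3) and 1 lower (RPS28) of 6. Of all names 27.9% were lower and 32.8% higher, and the difference between these short lists was not tested. The 45 members not called, among them RPL4, RPL8, RPL10, RPL11, RPL13, RPL36A, RPL39L, RPL41, RPLP2, RPS2, RPS6, RPS9, RPS15, RPS23, RPS24, RPS27 and RPS27A, had log2 fold changes between -0.48 (RPL10) and 0.39 (RPL7A). The abundant or regulated ones among them, RPS6, RPS24, RPS27 and RPS27A, had log2 fold changes of 0.16, -0.29, -0.30 and -0.11.

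**Figure D3:**
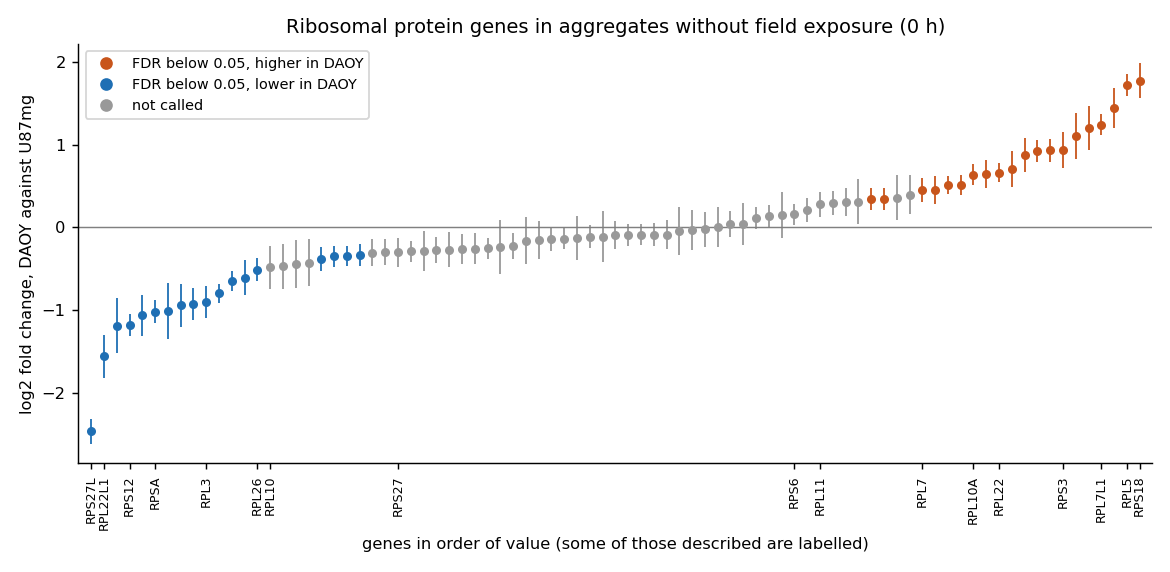
Log2 fold change of DAOY against U87mg at 0 h (vertical axis) for 83 ribosomal protein genes counted in both lines, ordered by value along the horizontal axis, with some of the genes described labelled. Points carry the SE of the fit with n = 3 a group, orange marks an FDR below 0.05 with DAOY higher, blue the same with DAOY lower, and grey genes that were not called. RPS27L lies at -2.46 and RPS18 at 1.77, with most genes within 1 of 0.

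The 2 h and 8 h aggregates allowed the same comparison of the lines in other libraries, although all samples shared the estimate of the spread. At 2 h, DAOY was higher for 32 members and lower for 12, where 33.2% and 27.4% of all names were. At 8 h it was higher for 18 and lower for 20, where 32.6% and 28.5% of all names were. Of the 21 members higher at 0 h, 20 were so at 2 h and 18 at 8 h, and of the 18 lower at 0 h, 9 were so at 2 h and 16 at 8 h. At all 3 times, 18 were higher and 9 lower. Over all times, the 9 DAOY samples lay entirely above the 9 of U87mg for 11 members and entirely below for 10, against 22.9% and 17.7% of all names. RPL5 spanned 1002 to 1380.4 CPM in DAOY and 321 to 408 CPM in U87mg. RPS27L spanned 36.5 to 59.7 CPM and 228 to 311 CPM. In both genes the gap between the lines was wider than the span within either line. The lower level of RPLP1, RPLP0, RPS21 and RPS28 was not called at 2 h, with log2 fold changes of -0.50, -0.43, -0.18 and -0.19.

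Within the paralog pairs the second gene's part of the pair's TPM differed most between the lines for RPL22 and RPS27. In U87mg at 0 h, RPL22L1 took 55.3, 57.2 and 64.5% of the pair, with 463, 444 and 600.2 TPM beside 374, 332 and 329.8 TPM of RPL22, so that the second gene was the more abundant one. In DAOY it took 19.96, 18.5 and 23.5%, with 193, 147 and 237 TPM beside 773, 645 and 772 TPM of RPL22. RPL22 itself was 1.58-fold higher in DAOY, so both genes of the pair moved the balance in the same direction. Over all 9 samples of a line, the RPL22L1 part ran from 51.97% to 72.2% in U87mg and from 15.6% to 29.8% in DAOY. RPS27L took 24.6, 25.3 and 21.1% of its pair in U87mg and 11.7, 8.02 and 4.19% in DAOY at 0 h. The means were 23.7% ± 2.22 and 7.97% ± 3.75 (SD, n = 3). RPL36AL took 32.2% ± 5.04 of its pair in DAOY and 23.2% ± 1.93 in U87mg, and RPL7L1 4.28% ± 0.196 and 2.701% ± 0.166. For these 4 pairs the lines did not overlap, and the exact two-sided permutation test gave p = 0.1 each, the smallest that 3 samples against 3 allow, so that of the 8 pairs compared none could pass 0.05 before or after adjustment. RPL26L1 and RPL39L took 3.12% ± 0.795 and 2.02% ± 0.601 of their pairs in DAOY, and 2.75% ± 0.747 and 1.55% ± 0.169 in U87mg (exact permutation p = 0.6 and 0.4). The size of these parts depends on the unit. With counts in place of TPM the difference between the lines was 7.63 percentage points for RPL7L1, against 1.57 by TPM, and -24.9 for RPS27L, against -15.7. The RPS27L part also rests on the TPM of RPS27, which was 1747, 1765 and 3546 in the DAOY samples at 0 h.

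With 8 h of field the second gene's part in DAOY was lower in 7 of the 8 pairs (not RPL3L, at a few counts), and in U87mg it was lower in 5 of 8, by at most 1.29 percentage points. For RPL36AL it was 27.01, 27.1 and 25.05% at 8 h and 37.8, 28.03 and 30.7% at 0 h, a mean difference of -5.81 percentage points (exact permutation p = 0.1). For RPL22L1 the difference was -3.75 percentage points (exact permutation p = 0.1), and for RPS27L it was -3.14 (exact permutation p = 0.2). The same differences in U87mg were -1.29, 0.166 and -0.903 (exact permutation p = 0.3, 0.9 and 0.7). When DAOY 0 h replicate 0 was left out the DAOY differences were -3.01, -4.098 and -1.28 percentage points for RPL36AL, RPL22L1 and RPS27L. With DAOY 0 h replicate 2 left out that of RPL22L1 was -2.33. By counts in place of TPM, with all samples, the DAOY difference of RPS27L was -3.95 percentage points. The shift of RPL7L1 in DAOY crossed 0 when DAOY 0 h replicate 1, 8 h replicate 1 or 8 h replicate 2 was left out.

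**Figure D4:**
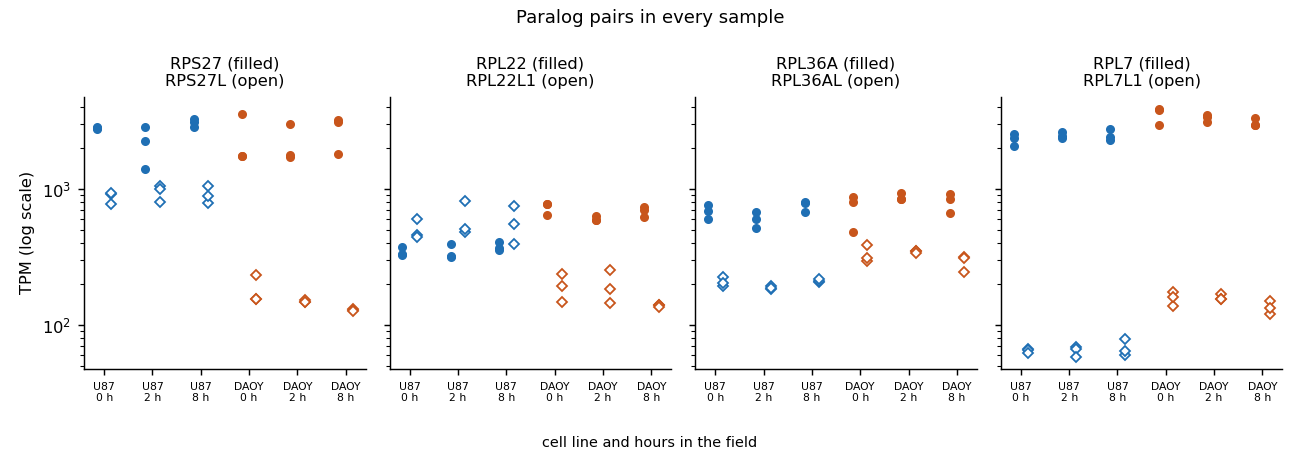
TPM on a log scale (vertical axis) of both genes of 4 paralog pairs in each of the 18 samples, by cell line and hours in the field (horizontal axis). Filled circles are the first gene, open diamonds the second, blue U87mg and orange DAOY. RPL22L1 lies above RPL22 in all 9 U87mg samples and below it in all 9 DAOY samples, and RPS27L lies higher in every U87mg sample than in any DAOY sample.

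The members higher in DAOY tended to lie among other genes that differed the same way. Those lower did so less often, and the pattern was noticed after the values were seen. RPS18, RPS10, RPL10A and RPL7L1 lie on the short arm of chromosome 6. In GENCODE 29 (GRCh38) RPS18 spans chr6:33272010-33276510, RPS10 chr6:34417454-34426125, RPL10A chr6:35468408-35470785 and RPL7L1 chr6:42879618-42889925. Other tested genes within 5 Mb of them had a median log2 fold change of 0.99, 0.98, 0.98 and 1.10, beside 1.77, 1.44, 0.64 and 1.24 for the members themselves. RPL5 (chr1:92831983-92841924) had 46 such neighbours with a median of 1.94, of which 89.1% were called higher in DAOY. RPL36AL and RPS29, close together on chromosome 14, each had 49 neighbours with a median of 1.11. Members called in either direction did not all follow. RPL22, RPL38 and RPL6, higher in DAOY by 0.66, 0.93 and 0.51, had neighbours at -0.09, 0.11 and 0.03. Of those lower, RPS12, on the long arm of chromosome 6, had neighbours at 0.31, RPS27L at -0.01 and RPL22L1 at 0.17. RPL9, RPL23A, RPL26, RPS20 and RPS28 also had neighbours above 0, at 0.22, 0.05, 0.04, 0.02 and 0.00394. RPLP1, RPL17 and RPLP0 had neighbours at -0.01, -0.09 and -0.10. RPSA and RPS21 had neighbours at -0.61 and -0.67. For RPL14, RPL19, RPL27, RPL23 and RPL3 the values were -0.45, -0.38, -0.38, -0.35 and -0.35. Across 83 members the correlation with the neighbours' median was r = 0.587 (Spearman's rho = 0.609). Over 14353 names with at least 10 neighbours it was r = 0.214 (rho = 0.321), and over the 4356 of them with a mean of at least 50 CPM, where 81 of the members lie, r = 0.354 (rho = 0.451). Neighbouring genes share their windows and all points share the same libraries, so these values describe the genes and carry no test. The copy number of these regions was not measured here.

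**Figure D5:**
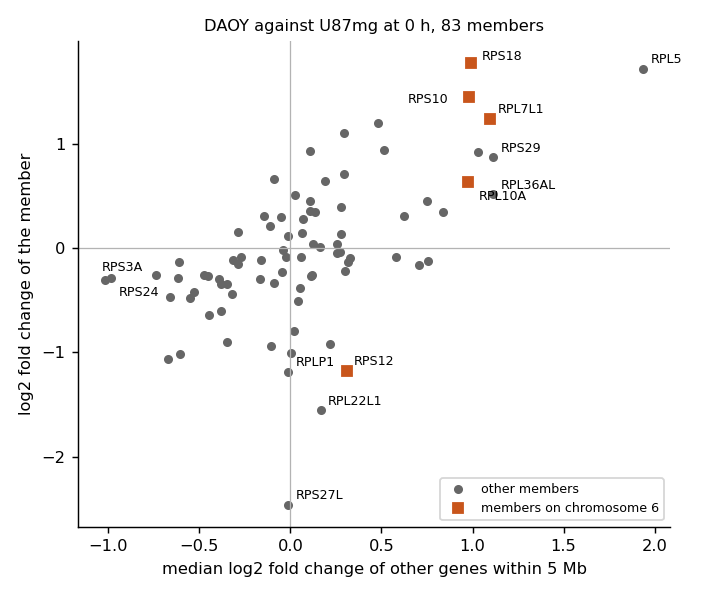
Log2 fold change of each of 83 members in DAOY against U87mg at 0 h (vertical axis) against the median log2 fold change of the other tested genes within 5 Mb (horizontal axis). Squares are members on chromosome 6 and circles the others. RPS18, RPS10, RPL10A and RPL7L1 lie at neighbour medians of 0.98 to 1.10 and RPL5 at 1.94, while RPS27L, RPL22L1 and RPS12 lie below -1 with neighbours at -0.01, 0.17 and 0.31.

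Kallisto divided the members' counts among transcript types in a manner that differed strongly between genes. Over all members 87.5% ± 2.05 (SD, n = 3) of counts in U87mg and 83.5% ± 4.17 in DAOY at 0 h lay on protein-coding rows, and 6.17% and 6.39% on rows typed as retained intron. For RPS23, however, retained-intron rows held a median of 88.3% of the counts in DAOY (74.1% to 93.2%) and 85.4% in U87mg. RPL4, RPS28 and RPL14 also had most of their counts there, with medians of 67.8%, 68.96% and 52.5% in DAOY. In RPS25 rows typed as nonsense-mediated decay held 55.2% in DAOY and 54.9% in U87mg. In RPS27 the noncoding processed-transcript row held between 21.2% and 99.8% of a DAOY library's counts and between 17.2% and 99.9% of a U87mg library's. The type of RPS27 thus swung from one row to the other between replicates, and since such rows share exons with the coding ones, these shares are estimates of how reads were divided. Processed pseudogenes of the members, 487 names, held 1.12% ± 0.142 as many counts as the members in U87mg and 2.05% ± 0.3605 in DAOY at 0 h, and reads of near-identical copies cannot be told apart with certainty.

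Other genes of the ribosome's production and use were read from lists beside the members. Of 77 mitochondrial ribosomal protein genes, which build the separate ribosome of mitochondria, none was called in U87mg at either time or in DAOY at 2 h by edgeR's quasi-likelihood test, with 5, 4 and 0 at an unadjusted p of 0.05 and 0, 0 and 0 by DESeq2. In DAOY at 8 h, 1 was higher and 5 lower, where 5.85% of all names were called, and DESeq2 called 8. An unadjusted p below 0.05 was found for 25, where 22.7% of all names passed. Of the 77, 11 lay above 0, with a median of -0.29, where the cytosolic members had 0.15. Without DAOY 0 h replicate 0 the cytosolic median was 0.00404. With 1 library left out at a time the mitochondrial ribosomal median ran from -0.38 to -0.24. MRPS6 was higher (log2 fold change 1.35, SE 0.23, FDR 0.0134), and MRPL15 (-1.24), MRPL1 (-0.999) and MRPS33 (-0.89) were among those lower by the same test. The count of 6 rests on single libraries. It was 0 without DAOY 8 h replicate 1 or replicate 2, 3 without DAOY 8 h replicate 0 or DAOY 0 h replicate 2, and 7 without DAOY 0 h replicate 0. The share of counts from mitochondrial genes was 5.97, 8.44 and 6.03% in the DAOY 8 h samples and 5.699, 5.59 and 2.92% at 0 h, and its part in this result was not tested. None of 28 initiation factors and none of 65 ribosome biogenesis factors was called by edgeR in any of the 4 field comparisons. DESeq2 called at most 3 and 2. At an unadjusted p of 0.05 there were 0 to 8 and 0 to 14, where 2.75% to 22.7% of all names passed. The 8 and 14 were in U87mg at 8 h, where 15.9% did. There 26 of 28 and 54 of 65 lay above 0, with medians of 0.18 and 0.20. The 24 other mRNAs with a TOP tract had a median of 0.17, where the cytosolic members had 0.15. In DAOY at 8 h the medians of these lists, in the same order, were 0.03, 0.04 and 0.08.

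Among regulators of TOP mRNAs and mTOR, edgeR called 3 of 25 tested in U87mg and 2 of 26 in DAOY at 8 h, all higher. Over all names 1.72% and 5.85% were called. An unadjusted p below 0.05 was found for 9 and 8 regulators, where 15.9% and 22.7% of all names passed. TSC1, the inhibitor of mTOR complex signalling that pairs with TSC2, was among those called higher at 8 h in both lines. Its log2 fold change was 0.89 in U87mg (SE 0.13, FDR 0.0158) and 0.74 in DAOY (SE 0.15, FDR 0.0231) by edgeR's quasi-likelihood test. The call was lost under 6 of 23 alternatives in U87mg, with the sign reversed under 1 more, and under 9 of 23 in DAOY. Among these were leaving out U87mg 0 h or 8 h replicate 2, and DAOY 0 h replicate 2 or 8 h replicate 1 or 2. The log2 fold change of TSC1 ran from 0.676 to 0.9602 over both lines when 1 library was left out. LARP4, an mRNA-binding protein of the same list, was higher by 0.59 in U87mg, a call lost under 15 of 23 alternatives. When only the most abundant transcript row of each gene was used, TSC1 in U87mg was at -0.09. Of 24 other mRNAs with a TOP tract, only the snoRNA host SNHG1 was called, higher in DAOY at 8 h (log2 fold change 0.94, FDR 0.0379 by the same test). That call was lost under 11 of 22 alternatives, among them leaving out DAOY 0 h replicate 1 or 2 or 8 h replicate 1 or 2. Between the lines at 0 h, where 32.8% of all names were higher in DAOY and 27.9% lower, 33 biogenesis factors were higher in DAOY and 7 lower of 65, 9 initiation factors higher and 3 lower of 28, and 6 other TOP mRNAs higher and 4 lower of 24. The shares higher of the initiation factors and the other TOP mRNAs lie near or below that of all names.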

How the data were processed

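Total RNA of 3 pooled channels a sample was poly(A)-selected into stranded libraries and sequenced as single 100-base reads. The authors quantified transcripts with kallisto 0.43.0 against GENCODE 24 (GRCh38.p5) and compared them with sleuth 0.28.1 in R 3.2.1, after FastQC 2.0.0, as the study's methods and the submitters' processing notes state. The strand option is not given in the sources used here. The table deposited by the authors holds an estimated count, not normalized, and a TPM value for each transcript and sample. Its columns of the authors' own comparisons (p-values, q-values and log fold changes) were not used.

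Estimated counts of all transcript rows of a name were summed and rounded. In edgeR 4.0.16 names were filtered with filterByExpr, scaled with TMM and fitted by quasi-likelihood, with Benjamini-Hochberg adjustment over all names tested and calls at an FDR below 0.05. The 9 samples of a line entered its time comparisons, and all 18 samples the comparison of the lines and the difference between lines in the 8 h change. CPM values are TMM-scaled within each of these fits. The fit was tested on simulated data with known fold changes. The rule of the study, an added 2-fold change, was an alternative, as Sleuth's test could not be run without the Kallisto output. The biological coefficient of variation was 0.180 in U87mg, 0.256 in DAOY and 0.223 over both. The study's methods call the 3 samples of a group biological replicates, kept from a larger number for their quality control results, each a pool of channels run side by side. They do not say whether these came from separate cultures, so p-values measure the spread between these samples. Paralog shares of TPM were compared with the exact permutation test, and TPM levels carry no test. Levels between genes used TPM.

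The members and gene lists were chosen with earlier results of these data known. Named in each comparison were up to 5 called members of largest change in each direction, the paralog pairs, RPL5, RPL11, RPLP0, RPLP1, RPLP2, RPS6, RPS27A, RPSA, RPL3, RPS3, the 3 members of highest and of lowest mean TPM and up to 4 called genes of each other list. Other members are named in full lists of calls or after their values were seen. Readthrough names (RPL17-C18orf32, RPL36A-HNRNPH2 and RPS10-NUDT3) held at most 6.98% as many counts as the member. Positions came from GENCODE 29, by gene ID. Protein sequences were not analysed here, and some genes are not reported here. Alternatives were DESeq2 1.42.0, other scaling, limma 3.58.1 on log2(TPM + 1) and log2(TPM + 0.1), other filters and row sets, a replicate block, smooth trends on length and GC content, and leaving out each sample. Computation used R 4.3.3, Python 3.11.15, pandas 2.3.3, numpy 2.4.6 and matplotlib 3.10.9.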

Additional observations from a re-analysis of the deposited data

How the results depend on the processing

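Members called moved under few settings. The count of members called between the lines at 0 h, 39, became 24 with only the 6 samples compared in the fit, 24 with the most abundant row of each name and 14 with a 2-fold change required, and ran from 33 to 40 with 1 sample left out. Its split of 21 higher and 18 lower became 26 and 10 with limma on log2 TPM and 26 and 13 without DAOY 0 h replicate 0. In U87mg, leaving out 1 sample gave 0 to 6 members called at 2 h and 0 to 1 at 8 h. Removing a GC trend, chosen after the data were seen, gave 1 called at 8 h in U87mg (RPL13A) and 1 in DAOY (RPS15A). With the replicate block 0 members were called in each field comparison and 39 between the lines, so it changed no count of members called. In none of the field comparisons did all same-numbered pairs deviate together (lowest correlation -0.20). The 2 h and 8 h samples of a line, which were not compared with each other, gave 0.146 to 0.263 in U87mg and 0.0653 to 0.437 in DAOY. The highest value between differently numbered samples was -0.00354 in U87mg and 0.175 in DAOY. The block is therefore given only here.

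The members' share of a library counted on protein-coding rows only was 2.48%, 2.21% and 2.63% in U87mg at 0, 2 and 8 h and 2.74% and 2.62% in DAOY at 2 and 8 h, and without mitochondrial rows it was 2.97% in U87mg at 0 h. By CPM in place of TPM, 4 of the 10 highest members stayed among the highest 10. The RPL7L1 part in DAOY at 8 h against 0 h ran from -0.43 to 0.0824 percentage points and the RPL26L1 part between the lines from -0.0698 to 0.73 with 1 sample left out, both crossing 0. TSC1 in U87mg at 8 h turned to -0.0917 on the log2 scale with the most abundant row. The cause of these changes was not tested. Depth limits only RPL3L and RPL10L.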
